A study of Mus musculus with 24 samples.

Results

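The OL translatome of the contused mouse spinal cord was compared between the chronic and the acute phase of recovery, that is between days post-injury (dpi) 42 and 2. Members were chosen by RNA kind and time as written in the sample names: 3 OL libraries of dpi 42 and 3 OL libraries of dpi 2, or 6 of the 24 libraries of the series. All animals were OL-Ribotag mice (genotype plp-cre;rpl22HA), in which tamoxifen-induced Cre, driven by a promoter active in myelinating glia, switches on an HA-tagged copy of the ribosomal protein RPL22, so that ribosomes of mature oligodendrocytes (OLs) can be pulled down with an HA antibody. Female mice received a T9 contusion of 50 kdyn from the IH impactor at 10 to 12 weeks of age per the labels, whereas the study's methods give a younger age. The cord around the lesion was taken on dpi 2 or dpi 42, with 2 mice pooled for each library. Uninjured (naive) OL libraries, OL libraries of dpi 10 and total RNA libraries from the same tissue pools serve here as reference levels. Cre in this line is also active in Schwann cells, and the dpi 42 animals were 40 days further from injury, so that time after injury cannot be told apart from age and from time after tamoxifen. Per the study, naive and dpi 42 tissue was taken on the same day, at the same age and time after tamoxifen began. Comparisons of dpi 2 with naive therefore also carry a difference in age and in time after tamoxifen.

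Mature OLs build and maintain the myelin sheath and depend on a high output of cholesterol, lipids and myelin proteins. After contusion, OLs at the lesion site die within days, further OLs are lost in the spared white matter, and new OLs are later made from precursor cells. The study gave tamoxifen before injury, and whether OLs made afterwards carry the tag was not tested here. Acute stress in such cells typically engages the integrated stress response through the transcription factor ATF4, receptor tyrosine kinase signalling with its Sprouty and SPRED brakes, and sterol sensing through SREBP2.

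Counts assigned to genes ranged from 29075211 to 32987841 in the 6 OL libraries, and levels are given as CPM, the counts of a gene scaled to a common library total, after TMM scaling. Values after ± beside a log2 change are standard errors (SE) of the fit, and those beside a level are SDs. The libraries of dpi 2 are listed in the order 1, 2 and 3, and those of dpi 42 in the order unnumbered, 2 and 3, since the labels of 1 dpi 42 library conflict and give it no number. Pairs of libraries of a group differed by far more than sampling noise, with a mean chi-square per gene of at least 34.2. The myelin and mature OL markers stood 2.68 log2 units (median) above total RNA on dpi 2 and 2.6 on dpi 42, whereas the neuron and homeostatic microglia lists had medians of -3.59 and -3.83 on dpi 2 and of -4.41 and -3.39 on dpi 42. *Rpl22*, the tagged gene, was at 166, 189 and 172 CPM on dpi 2 and at 147, 129 and 123 CPM on dpi 42. Dpi 2 library 2 carried 2414 counts on 4 Y-linked genes, and its total RNA partner 2604, against at most 13 in each of the other 22 libraries, although the study describes females. The summed level of the 14 astrocyte markers was uneven within both groups, at 4820.4, 3111 and 11469 CPM on dpi 2 and at 16012, 14059 and 3215 CPM on dpi 42, whereas it kept to 8550.5 to 10455 CPM in the total RNA libraries of both days.

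Across 17167 genes, 1100 differed between the times by more than 1 log2 unit with q under 0.05 (edgeR quasi-likelihood F test with Benjamini-Hochberg adjustment), which is 6.41% of those tested. Levels were higher on dpi 42 for 631 genes (3.68%) and lower for 469 (2.73%), and the median change of all tested genes was 0.00 on the log2 scale. The 3 libraries of dpi 42 lay wholly above those of dpi 2 for 453 of the higher genes and wholly below for 376 of the lower genes, while 22% of all tested genes had groups that did not overlap. In 243 of the 1100 genes no library of one group held more than 3 counts, and for those only a lower bound of the fold is given. Without the library carrying Y-linked counts there were 509 higher and 468 lower genes, and without both that library and the one with conflicting labels 491 and 484. With the 6 OL libraries alone in the fit, 189 genes were higher and 192 lower. Leaving out dpi 2 library 3, the astrocyte-rich library of that day, gave 940 higher and 466 lower genes.

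**Figure D1:**
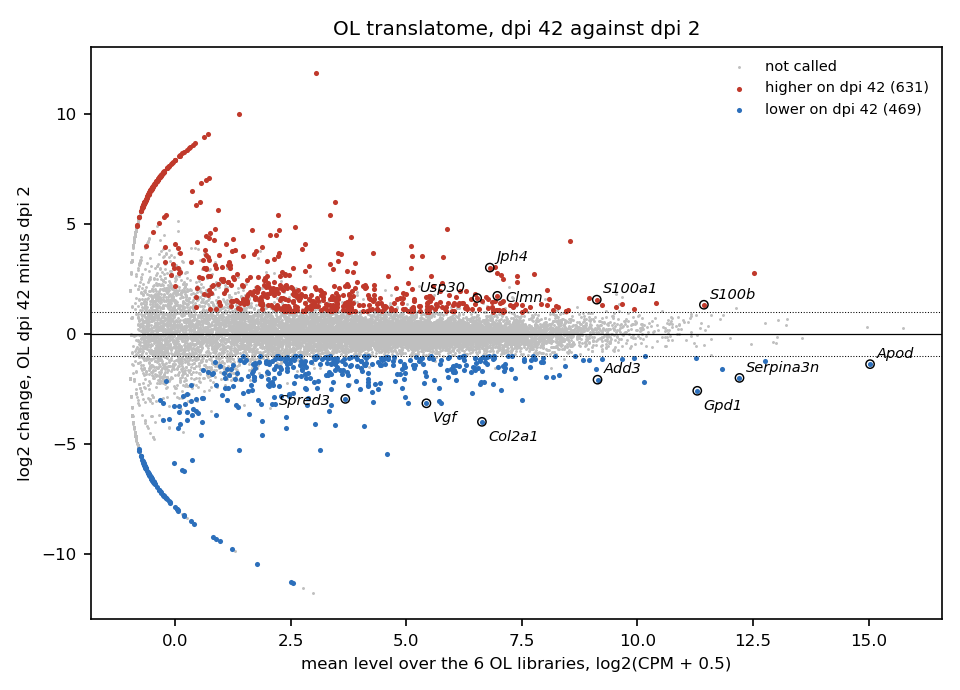
Log2 change in the OL translatome (dpi 42 minus dpi 2) of each gene detected in the 6 OL libraries against its mean level in log2(CPM + 0.5), with the 631 higher genes in red, the 469 lower genes in blue and dotted lines at a change of 1 and -1. The curved edges at low levels hold genes without counts in one group, and *Apod*, *Serpina3n* and *Gpd1* are called genes at high levels.

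In total RNA of the same pools, 0.874% of genes (150) were higher and 1.73% (297) lower on dpi 42. Of the OL genes, 93 of the higher and 113 of the lower were called in the same direction in total RNA, and no gene was called in opposite directions. Many called genes of both directions were not OL-enriched. Of the 631 higher genes, 415 lay more than 0.5 log2 units below total RNA on dpi 2 and 211 did so on dpi 42 (q under 0.05). Of the 469 lower genes, 186 did so on dpi 2 and 282 on dpi 42. Genes called for a low OL level on a day lie below total RNA on that day more readily. The share over all tested genes was not counted. Fewer cells of a type and less RNA per cell cannot be told apart in such bulk samples. The two-arm filtration of the study was therefore applied to this pair of times. A called gene passed if its OL change differed from its total RNA change by more than 1 log2 unit in the same direction, or if it stood more than 1 log2 unit above total RNA on both days, each with q under 0.05. Passing genes numbered 87 higher (0.507% of tested genes) and 98 lower (0.571%). Without dpi 2 library 3, 169 higher and 123 lower genes passed. The OL change differed from the total RNA change in that way for 79 genes in the positive and 86 in the negative direction (0.46% and 0.501% of tested genes, together 0.961%). With each tissue pool as a block that pairs its OL and total RNA libraries, the numbers were 50 and 54 over all 24 libraries and 10 and 8 over the 12 libraries of both days. The same 12 libraries gave 27 and 25 with no block. With these pool blocks 68 higher and 72 lower genes passed the filtration over 24 libraries, and 45 and 40 over 12. For single genes, the q of the difference over 24 and over 12 libraries is given below as paired q. Without dpi 2 library 3 that difference was called for 191 genes in the positive and 99 in the negative direction.

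**Figure D2:**
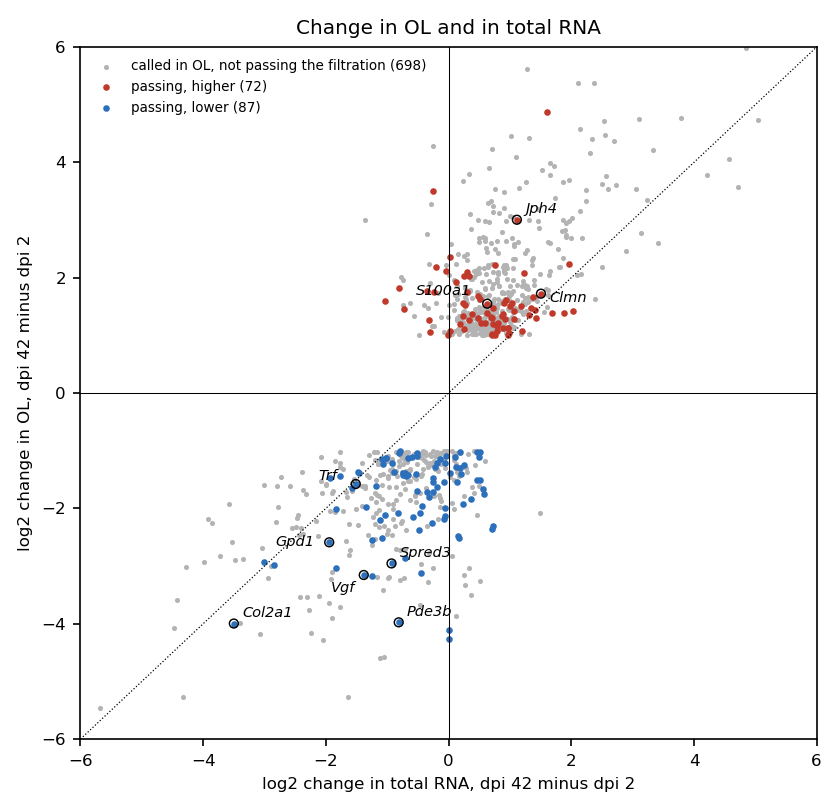
Log2 change in the OL translatome against log2 change in total RNA (dpi 42 minus dpi 2 in both) for the 857 called OL genes with more than 3 counts in a library of each OL group. Red and blue points are the 72 higher and 87 lower genes among them that passed the two-arm filtration, and on the dotted line both changes are equal: *Trf* and *Col2a1* lie near it, *Jph4*, *Pde3b* and *Spred3* far from it.

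Among the lower genes with the smallest p-values were several that stood high on dpi 2 and near the naive level on dpi 42. Filtered genes were ranked only if the libraries of the days did not overlap, so that separation adds no support for them. *Vgf* (chr5:137026392-137033351, plus strand in GRCm38), the precursor of secreted neuropeptides, was at 60.2, 75 and 95.2 CPM on dpi 2 and at 7.87, 8.85 and 9.16 CPM on dpi 42 (log2 change -3.15 ± 0.17 (SE), q = 1.16e-10). The dpi 42 libraries all lay below the dpi 2 libraries and close to the naive mean of 7.61 ± 0.809 CPM (SD, n = 3). *Gpd1* (chr15:99717515-99725005, plus strand), the cytosolic glycerol-3-phosphate dehydrogenase that links glycolysis to lipid synthesis, fell from 4486, 4795 and 3632 CPM to 705, 734 and 709 CPM (log2 change -2.59 ± 0.15 (SE), q = 3.60e-10). The naive mean was 712 ± 162 CPM. *Col2a1* (chr15:97975602-98004695, minus strand), a fibrillar collagen best known from cartilage, fell from 177, 225 and 156 CPM to 10.1, 12.5 and 12.4 CPM (log2 change -4.0 ± 0.20 (SE), q = 8.75e-11), the smallest p-value of this comparison. Its naive mean was 15.6 ± 1.32 CPM. *Trf*, which encodes the iron carrier transferrin that OLs secrete, fell from 5510.2, 5982 and 4969 CPM to 1592, 1885 and 2042 CPM (log2 change -1.58 ± 0.12 (SE), q = 4.05e-08), against 1877 ± 197 CPM in naive libraries. *Gpd1*, *Col2a1* and *Trf* were also lower in total RNA, by log2 changes of -1.95, -3.5 and -1.51, and their OL change did not differ from it by the test (q = 0.118, 0.405 and 0.992).

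In 4 other lower genes, *Spred3*, *Pde3b*, *Add3* and *Snx22*, the OL change exceeded that of total RNA, a difference by which genes could pass the filtration. *Spred3*, a brake on RAS and ERK signalling, went from 20.5, 20.9 and 24 CPM to 3.29, 2.2 and 2.93 CPM (log2 change -2.95 ± 0.20 (SE), q = 5.57e-09). The difference from the total RNA change was -2.02 ± 0.26 (SE), q = 3.78e-04 (paired q = 0.00535 and 0.0516). *Pde3b*, a phosphodiesterase that degrades cyclic AMP, was at 6.31, 5.47 and 6.27 CPM on dpi 2 and at 0.734, 0.112 and 0.274 CPM on dpi 42 (log2 change -3.98 ± 0.33 (SE), q = 7.13e-08, difference from total RNA -3.16 ± 0.41 (SE), q = 4.04e-04, paired q = 0.00635 and 0.109). The libraries of the 2 times did not overlap for either gene, which was a condition of their ranking, and levels of *Pde3b* were low throughout. *Add3* (γ-adducin, a cap of the spectrin-actin membrane skeleton) had a log2 change of -2.08 ± 0.14 and *Snx22* (a sorting nexin) of -1.72 ± 0.15. Both fell further than in total RNA (q of the difference 0.0014 and 0.00122). Paired by pool, *Add3* kept this (paired q = 0.00164 and 0.0419) and *Snx22* did so over 24 libraries alone (paired q = 0.0165 and 0.191). *Hsd17b12*, a reductase of very-long-chain fatty acid elongation, went from 422, 345 and 419 CPM to 197, 200.0 and 192 CPM (log2 change -1.01 ± 0.08 (SE), q = 7.98e-08), just past the limit of 1. Its OL change did not differ from that in total RNA by the test (difference -0.22 ± 0.12 (SE), q = 0.42, paired q = 0.542 and 0.921). It therefore passed the filtration only through standing above total RNA on both days. The naive mean lay below the dpi 42 libraries for *Snx22* (16.1 CPM), and above them for *Add3* (335 CPM) and *Hsd17b12* (283 CPM).

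All called genes were placed against the naive mean. Of the 469 lower genes, the naive mean lay below both times for 217, between them for 203 and above both for 49. Of the 631 higher genes, it lay below both times for 134, between them for 368 and above both for 129. The dpi 10 mean lay between those of dpi 2 and dpi 42 for 344 of the lower and 442 of the higher genes. These are positions of means and were not tested. Called genes have a wide gap between the days, so that the mean of another group falls inside it more readily. The same positions were not counted over all genes.

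The study singled out 34 acute OL genes in these same samples, so that their direction here is not independent evidence. Its acute genes were those raised on dpi 2 and, on dpi 42, either not significantly raised or at least 2-fold lower. A fall by dpi 42 was thus largely fixed by that choice. On dpi 42, 25 of the 34 were lower and none higher, with a median log2 change of -1.64 in OLs and of -0.63 in total RNA, against a background of 2.73% lower genes. *Steap3*, a ferrireductase of endosomal iron uptake, was at 185, 163 and 94.1 CPM on dpi 2 and at 24.5, 22.8 and 20.7 CPM on dpi 42 (log2 change -2.7 ± 0.45 (SE), q = 2.42e-04), still above the naive mean of 3.61 ± 4.29 CPM. *Cacng5*, an auxiliary subunit of AMPA-type glutamate receptors, fell from 76.7, 47.8 and 49.2 CPM to 6.61, 5.53 and 7.24 CPM (log2 change -3.16 ± 0.30 (SE), q = 4.34e-07). The phospholipase *Pla2g3* (-3.04 ± 0.42), the sphingosine kinase *Sphk1* (-3.19 ± 0.55) and the tyrosine phosphatase *Ptpn5* (-2.19 ± 0.22) also fell on the log2 scale. *Apod*, a lipocalin that binds lipids, fell from 37396, 60547 and 47283 CPM to 19089, 17376 and 19413 CPM (log2 change -1.38 ± 0.15 (SE), q = 3.05e-06), more than 2-fold above its naive mean of 7789 CPM on dpi 42. *Pcyox1l*, a prenylcysteine oxidase-like gene, fell as well (log2 change -1.12 ± 0.15). *Il17b* (-0.62, q = 0.75) did not pass the test, nor did *Fgfr4*, whose call depended on the libraries and tool used and is given with the FGF genes.

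**Figure D3:**
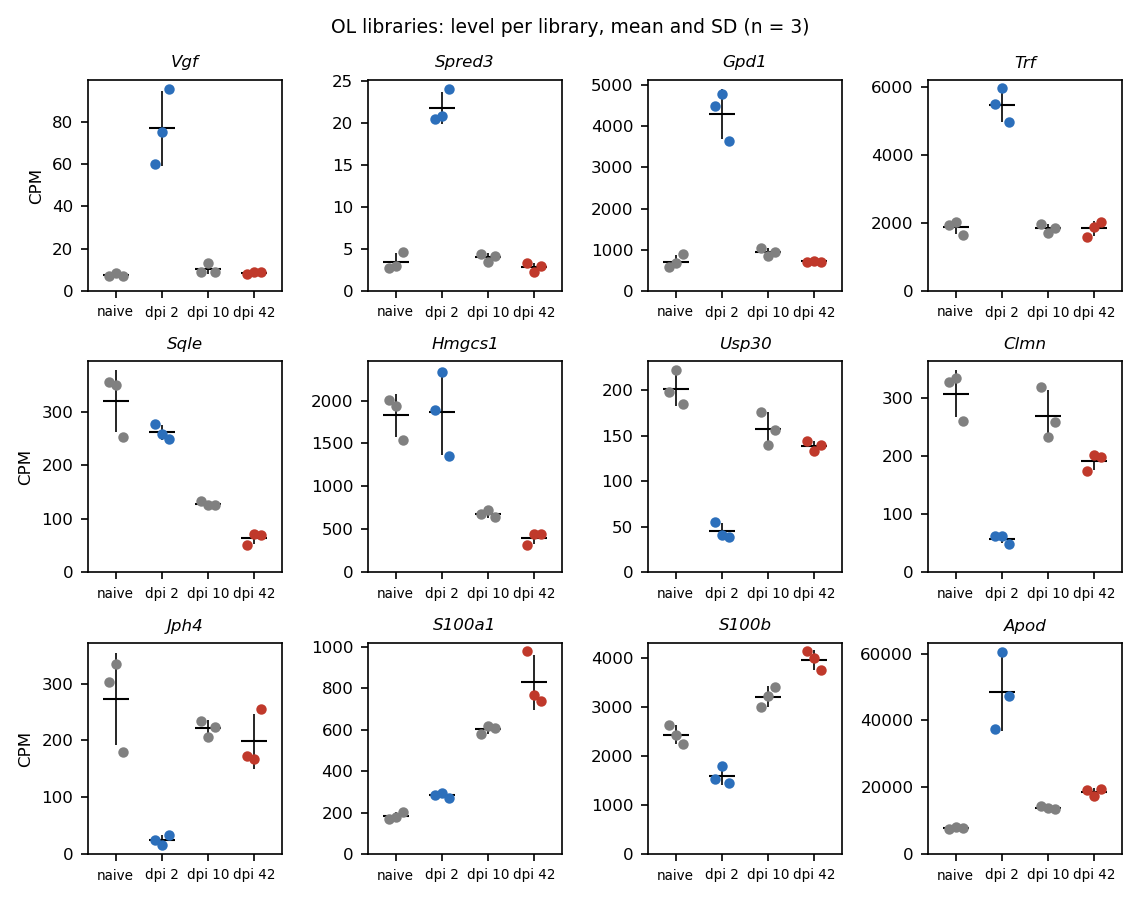
Levels in CPM of 12 genes in each OL library of naive cord, dpi 2 (blue), dpi 10 and dpi 42 (red), with horizontal bars at the mean and vertical bars of 1 SD (n = 3). *Vgf*, *Spred3*, *Gpd1* and *Trf* peak on dpi 2, *Sqle* and *Hmgcs1* are near the naive level on dpi 2 and low on dpi 42, *Usp30*, *Clmn* and *Jph4* are lowest on dpi 2, and *S100a1* and *S100b* are highest on dpi 42.

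Several feedback inhibitors listed with the fibroblast growth factor (FGF) genes were lower, while signalling itself was not measured. Among 19 genes of FGF ligands, receptors and feedback inhibitors, 8 were lower and none higher by more than 1 log2 unit, against 2.73% of all genes lower, with a list median of -1.04. Beside *Spred3*, the receptor tyrosine kinase inhibitors *Spry1* (-1.4 ± 0.17), *Spry2* (-1.62 ± 0.14) and *Spry4* (-2.12 ± 0.29), and the ERK phosphatase *Dusp6* (-1.89 ± 0.45) fell on the log2 scale. *Spry2* was at 136, 135 and 135 CPM on dpi 2 and at 41.3, 46.3 and 44.2 CPM on dpi 42, so that the groups lay far apart. Its naive mean was 56 ± 5.81 CPM. The FGF carrier gene *Fgfbp3* (-1.42 ± 0.23) fell as well. Of the receptors, *Fgfr1* (0.20, q = 0.239) and *Fgfr3* (0.42, q = 0.804) did not pass the test. Without dpi 42 library 3, *Fgfr1* passed q under 0.05 but not the limit of 1 (0.34, q = 0.0147). *Fgfr4* (-1.52, q = 0.0771) missed the threshold in edgeR with all 24 libraries, but passed it with DESeq2 (-1.54, q = 0.0432), with 12 OL libraries (-1.54, q = 0.00258) and with 6 (-1.54, q = 0.00793). *Spry4* fell further than in total RNA (difference -2.06 ± 0.40 (SE), q = 0.00876, paired q = 0.0295 and 0.147).

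Genes of the integrated stress response were lower for some of the members. Of 28, 8 were lower and none higher, against 2.73% of all genes lower, and the list median was -0.31. *Atf4* itself, the transcription factor of the pathway, went from 288, 293 and 193 CPM to 113, 119.6 and 113 CPM (log2 change -1.16 ± 0.13 (SE), q = 2.70e-06). The amino acid genes *Slc7a1* (cationic amino acid import, -2.26 ± 0.26), *Pycr1* (proline synthesis, -2.83 ± 0.60), *Aldh18a1* (proline synthesis, -1.73 ± 0.28), *Asns* (asparagine synthesis, -1.25 ± 0.23) and *Bcat1* (branched-chain amino acid transamination, -1.2 ± 0.20) fell on the log2 scale. The stress-induced pseudokinase gene *Trib3* was at 11.5, 13.7 and 1.99 CPM and at 0, 0.336 and 1.06 CPM (log2 change -4.29 ± 1.21 (SE), q = 0.0171). It lost its call without library 2 of dpi 2 (-3.84, q = 0.051) or of dpi 42 (-4.06, q = 0.0618). The eIF2α phosphatase subunit *Ppp1r15a* (-0.30, q = 0.252) did not pass the test. The serine synthesis gene *Phgdh* rose by less than 1 log2 unit (0.40, q = 0.00512). Without the library carrying Y-linked counts and the one with conflicting labels, 5 members were lower.

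The composite element TGATGNAAT, which ATF4 binds with C/EBP partners, was looked for on both strands of the RefSeq promoters (250 bases before to 50 after the start, GRCm38.p6). It occurred for 3 of the 27 list members with a promoter entry and for 1.08% of all 27025 genes with one. Only one of the 3, *Pycr1*, was lower on dpi 42 (11.3, 7.13 and 4.55 CPM against 2.1, 0.187 and 0.939 CPM), and its promoter (chr11:120643699-120643998, minus strand, log2 change -2.83 ± 0.60 (SE), q = 0.00241) is shown with the match in capitals because it joins the motif to a called gene.
Pycr1: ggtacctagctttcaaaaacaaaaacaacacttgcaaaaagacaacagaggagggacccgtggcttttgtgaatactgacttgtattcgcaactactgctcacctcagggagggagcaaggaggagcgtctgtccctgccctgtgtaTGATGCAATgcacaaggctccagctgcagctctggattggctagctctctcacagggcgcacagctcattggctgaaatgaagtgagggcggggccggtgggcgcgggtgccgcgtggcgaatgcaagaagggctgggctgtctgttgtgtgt
The others, *Nupr1* (-0.44, q = 0.523) and *Fgf21*, which had no counts in the 6 OL libraries, were not called, and a match of letters is no evidence of binding.

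Sterol synthesis was lower nearly as a whole. Of 25 genes of cholesterol synthesis and its SREBP2 control, 19 were lower on dpi 42 and none higher, against 2.73% of all genes lower. The median log2 change was -1.45. At q under 0.05 with no limit on size, 24 were lower, against 8.66% of all tested genes. *Hmgcs1* (chr13:119690379-119708260, plus strand), which makes HMG-CoA for the mevalonate pathway, was at 1895, 2334 and 1356 CPM on dpi 2 and at 317, 449 and 449.8 CPM on dpi 42 (log2 change -2.2 ± 0.19 (SE), q = 9.58e-08). Its naive mean, 1826 ± 249.7 CPM (SD, n = 3), was close to dpi 2 and several-fold above dpi 42, so that the lower chronic level was no return to naive (against naive on dpi 42 -2.17, q = 5.91e-08). Over the list, the median change against the same naive libraries was 0.02 on dpi 2 and -1.54 on dpi 42. *Sqle*, the squalene epoxidase, went from 276, 259 and 249.7 CPM to 51.7, 71.2 and 70.2 CPM (log2 change -2.02 ± 0.19 (SE), q = 2.87e-07).

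The same direction ran through the isoprenoid, squalene and lanosterol steps of the pathway. *Idi1* (-2.3 ± 0.30), *Fdps* (-2.11 ± 0.22) and *Fdft1* (-1.22 ± 0.16) of the isoprenoid and squalene steps, and *Cyp51* (-1.85 ± 0.13), *Msmo1* (-1.98 ± 0.18) and *Nsdhl* (-1.24 ± 0.22) of lanosterol demethylation fell on the log2 scale. The sterol sensor *Insig1* (-1.7 ± 0.17) and the sterol carrier *Stard4* (-2.15 ± 0.28) fell as well. The transcription factor gene *Srebf2* changed by less than 1 (-0.57, q = 1.59e-04). The escort protein gene *Scap* was the one member that did not pass q under 0.05 (0.01, q = 1), and its libraries overlapped (152, 145 and 143 CPM against 143, 142 and 158 CPM). In total RNA the list median was -0.73. The OL change was larger for *Hmgcs1* (difference -1.09 ± 0.26 (SE), q = 0.0343) and *Insig1* (-1.18 ± 0.24 (SE), q = 0.0115). Neither difference passed the test with pools paired (paired q = 0.0767 and 0.427 for *Hmgcs1*, paired q = 0.0511 and 0.375 for *Insig1*). Among 23 genes of fatty acid and sphingolipid synthesis 3 were lower, against 2.73% of all genes. These were *Acly* (cytosolic acetyl-CoA supply, -1.02 ± 0.13), *Elovl6* (fatty acid elongation, -1.01 ± 0.12) and *Scd1* (desaturation, -1.0 ± 0.12), all 3 just past the limit of 1.

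**Figure D4:**
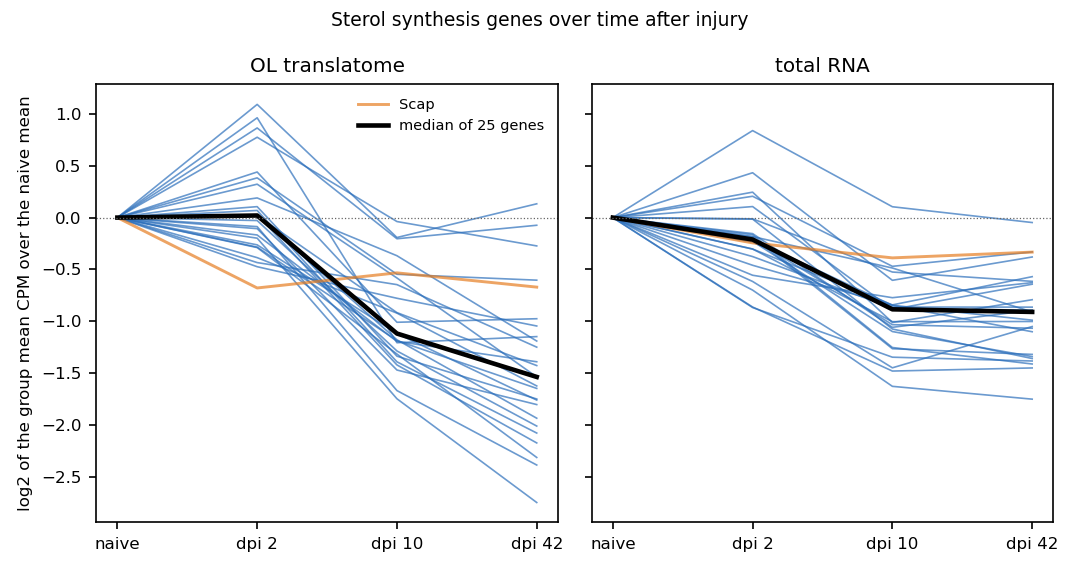
Group mean levels of the 25 sterol genes in naive cord and on dpi 2, 10 and 42, as log2 of the ratio to the naive mean, in the OL translatome (left) and total RNA (right), with the median in black and *Scap* in orange. In OLs the median stays at the naive level on dpi 2 and falls on dpi 10 and dpi 42, and the changes against naive share the naive libraries.

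The core of the sterol regulatory element, TCACNCCAC, occurred on either strand for 1 of the 18 list members with a RefSeq promoter entry and for 1.44% of all genes with one. The one match was in *Hmgcs1* (chr13:119690101-119690400, plus strand). Its promoter is shown with the match in capitals. On dpi 2 its level was 1356 to 2334 CPM and on dpi 42 317 to 449.8 CPM.
Hmgcs1: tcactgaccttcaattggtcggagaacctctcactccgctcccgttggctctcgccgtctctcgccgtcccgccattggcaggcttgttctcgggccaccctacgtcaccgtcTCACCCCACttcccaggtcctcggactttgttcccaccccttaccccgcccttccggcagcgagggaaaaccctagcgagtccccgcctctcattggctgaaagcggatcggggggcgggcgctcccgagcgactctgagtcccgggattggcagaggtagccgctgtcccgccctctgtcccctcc
The absence of these letters elsewhere says only that they are not in these windows.

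Several protease, cytokine response and immediate early genes were high on dpi 2 and lower but still above naive on dpi 42. *Serpina3n*, an extracellular serine protease inhibitor, was at 7634, 7457 and 7616 CPM on dpi 2, at 1752, 1817 and 2099 CPM on dpi 42 (log2 change -2.0 ± 0.19 (SE), q = 4.34e-07) and at 59.5 ± 23.3 CPM in naive libraries (dpi 42 against naive 4.99, q = 2.28e-12). Of the 7 tested genes of its cluster, whose near-identical sequences can share reads, 5 were lower, against 2.73% of all genes. *Serpina3c* (20.4, 32.5 and 6.66 CPM against 0.035, 1.16 and 2.15 CPM) and *Serpina3m* (24, 89.8 and 23.7 CPM against 1.61, 1.49 and 0 CPM) were among the 5. *Klk8*, a secreted kallikrein protease, fell from 316, 352 and 291 CPM to 40.6, 33.3 and 46.9 CPM (log2 change -2.99 ± 0.35 (SE), q = 5.75e-06). *Klk6*, the best known OL kallikrein, did not pass the test (4345, 5098 and 3739.7 CPM against 3665, 3255 and 4557 CPM, log2 change -0.20 ± 0.24 (SE), q = 0.659). Of 18 gp130 cytokine and STAT3 genes, 4 were lower and 2 higher, against 2.73% and 3.68% of all genes. *Socs3*, the STAT3 feedback inhibitor, fell from 67, 89.8 and 75.4 CPM to 19.3, 17.8 and 16.7 CPM (log2 change -2.11 ± 0.42 (SE), q = 0.00118). The ligand *Clcf1* fell too (-3.51 ± 0.46). The higher genes were *Cntf* (2.07 ± 0.60) and the receptor subunit gene *Cntfr* (1.58 ± 0.49). Both lost the call without dpi 2 library 1 (1.83, q = 0.0755 and 1.26, q = 0.112) or the unnumbered dpi 42 library (1.71, q = 0.0772 and 1.5, q = 0.0643). *Cntf* also lost it without dpi 2 library 3 (1.82, q = 0.0626), and *Cntfr* without library 2 of dpi 2 (1.4, q = 0.102) or of dpi 42 (1.46, q = 0.0716).

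Of 20 AP-1 and immediate early genes 5 were lower and none higher, against 2.73% of all genes lower. *Fos*, the prototype immediate early factor, went from 101, 103 and 92.1 CPM to 21.3, 33 and 33.9 CPM (log2 change -1.75 ± 0.23 (SE), q = 1.96e-05). *Junb* went from 48.7, 55.3 and 53.4 CPM to 24.1, 17.8 and 16.3 CPM (log2 change -1.43 ± 0.21 (SE), q = 7.28e-05), with naive means of 3.64 and 2.1 CPM (dpi 42 against naive 3.02, q = 4.09e-08 and 3.2, q = 1.02e-08). *Jun* (0.34, q = 0.208) did not pass the test, and its groups overlapped. *Atf3* (-0.75, q = 0.105) passed only without the unnumbered dpi 42 library (-1.1, q = 0.0306). Beside *Steap3* and *Trf*, the heme oxygenase gene *Hmox1* was the third of 3 lower genes among 19 of iron handling, falling from 161, 116 and 206 CPM to 42.8, 34.2 and 28.8 CPM (log2 change -2.19 ± 0.25 (SE), q = 3.05e-06). *Hmox1* fell less in OLs than in total RNA (difference 1.74 ± 0.34 (SE), q = 0.00906, paired q = 0.0247 and 0.185) and stood -1.77 log2 units from total RNA on dpi 2. The ferroxidase *Cp* (1.75 ± 0.30) and the metal carrier *Slc39a8* (2.23 ± 0.49) of the same list rose. Over all genes 3.68% were higher and 2.73% lower.

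Genes of the translation machinery fell by small amounts. All 75 cytosolic ribosomal protein genes had a negative log2 change, 70 with q under 0.05 and 4 past 1 (*Rps18* -1.34 ± 0.14, *Rps19* -1.12 ± 0.15, *Rpl38* -1.1 ± 0.13 and *Rpsa* -1.02 ± 0.10), with a median of -0.62. Over all genes 8.66% were lower at q under 0.05 and 2.73% past 1. The sums that follow are of the ribosomal protein genes. Their summed level was 16486 to 18181 CPM on dpi 2, 10942 to 11546 CPM on dpi 42 and 6810.4 to 7314 CPM in naive libraries. The fall was present in total RNA as well (median -0.43). No member's OL change differed from it with q under 0.05, as 1.39% of all genes did. Many of these genes have processed copies that can share reads. Of 20 aminoacyl-tRNA synthetases none passed the limit of 1, and 13 were lower at q under 0.05 (8.66% of all genes). Of 18 ER chaperone genes, 12 were lower at that limit, and *Sdf2l1* (-1.52 ± 0.23) and *Creld2* (-1.12 ± 0.16), both induced by unfolded protein, past 1. *Hspa5*, the main ER chaperone, was not called (1272, 1009 and 1053 CPM against 392.2, 869 and 901 CPM, log2 change -0.62 ± 0.22 (SE), q = 0.0578), also without library 3 of dpi 42, when its change was -0.83, q = 0.0249.

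**Figure D5:**
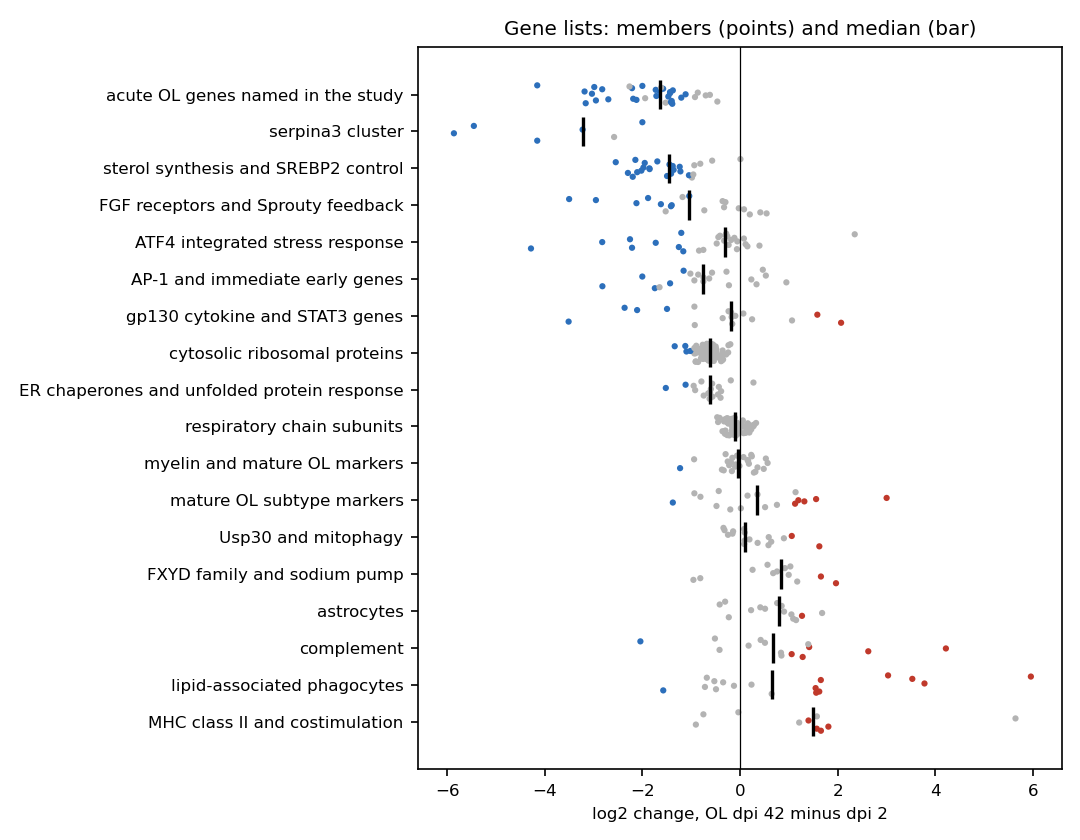
Log2 change in the OL translatome (dpi 42 minus dpi 2) of the members of 18 gene lists detected in the 6 OL libraries, with higher genes in red, lower genes in blue, genes not called in grey and the list median over tested members as a black bar. Sterol genes and acute OL genes lie to the left of 0, ribosomal proteins lie in a narrow band at a median of -0.62, and myelin and respiratory chain genes centre near 0.

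Several of the higher genes with the smallest p-values stood below the naive level on dpi 2. Dpi 2 and naive libraries also differ in age and in time after tamoxifen. *Jph4* (chr14:55106826-55116935, minus strand), a junctophilin that tethers the endoplasmic reticulum to the plasma membrane, was at 24.5, 16.2 and 33.4 CPM on dpi 2 and at 172, 168 and 255 CPM on dpi 42 (log2 change 3.0 ± 0.24 (SE), q = 4.19e-08), 8.03-fold higher. Its naive mean was 273 ± 81.8 CPM (dpi 2 against naive -3.47, q = 8.32e-10). *Clmn* (chr12:104763117-104865076, minus strand), which encodes the actin-binding membrane protein calmin, was at 62.9, 62.3 and 48.7 CPM and at 173, 202 and 199 CPM (log2 change 1.72 ± 0.13 (SE), q = 4.19e-08). The naive mean was 307 ± 40.2 CPM (-2.4, q = 6.43e-11). *Usp30* (chr5:114065461-114124720, plus strand), the mitochondrial deubiquitinase that opposes mitophagy, was at 55.4, 41.1 and 38.6 CPM and at 144, 133 and 139.9 CPM (log2 change 1.63 ± 0.11 (SE), q = 1.08e-08). The naive mean was 202 ± 19 CPM (-2.16, q = 3.34e-11). In these 3 genes all dpi 42 libraries lay above all dpi 2 libraries, which was a condition for ranking *Jph4* and *Clmn* among the filtered genes. *Clmn* rose about as much in total RNA (1.51 ± 0.14 (SE), q = 6.45e-07), and *Jph4* rose more in OLs (difference 1.89 ± 0.31 (SE), q = 0.00278, paired q = 0.00535 and 0.0448). *Usp30* also rose more in OLs (difference 0.82 ± 0.16 (SE), q = 0.00876, paired q = 0.0351 and 0.263), but by less than 1 log2 unit, and at 0.55 log2 units above total RNA on dpi 2 it passed neither arm of the filtration.

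*Hdac11*, a class IV histone deacetylase, rose from 303, 224 and 205 CPM to 695, 713 and 845 CPM (log2 change 1.62 ± 0.13 (SE), q = 7.56e-08) and reached its naive mean of 690.4 CPM. *Arsb*, a lysosomal sulfatase that degrades chondroitin and dermatan sulfate, rose from 51.9, 45.7 and 53.4 CPM to 130.4, 123 and 126 CPM (log2 change 1.33 ± 0.11 (SE), q = 4.38e-08), whereas total RNA showed 0.24 ± 0.10 (SE), q = 0.161. The adhesion molecule gene *Mcam* (1.93 ± 0.17), the secreted glycoprotein gene *Creg2* (2.22 ± 0.21), the Wnt antagonist *Frzb* (2.04 ± 0.21) and the quinone reductase *Nqo1* (1.69 ± 0.16) rose on the log2 scale, each by over 1 log2 unit more than in total RNA. With pools paired, the difference held in both fits for *Arsb* (paired q = 0.0026 and 0.0448) and *Mcam* (paired q = 0.00118 and 0.0402). For *Creg2* (paired q = 0.0343 and 0.225), *Frzb* (paired q = 0.0243 and 0.234) and *Nqo1* (paired q = 0.0424 and 0.263) it held over 24 libraries but not over 12. *Mcam*, *Creg2* and *Frzb* were at -0.96, -2.13 and -3.0 log2 units from total RNA on dpi 2, so that they were not OL-enriched in the acute phase. They could therefore pass the filtration only through their difference from total RNA. *Olfml1*, an olfactomedin-like gene, rose by a log2 change of 1.13 ± 0.12 and stayed below its naive mean (71.6, 73.9 and 89.3 CPM on dpi 42 against 125 CPM). *Tmod1*, which caps the pointed end of actin filaments, rose from 106, 87.7 and 118 CPM to 277, 227 and 268 CPM (log2 change 1.31 ± 0.11 (SE), q = 9.09e-08).

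Other higher genes stood above the naive level on dpi 42. *S100a1* (chr3:90511034-90514392, minus strand), an EF-hand calcium-binding protein gene, was at 284, 296 and 269 CPM on dpi 2 and at 978, 767 and 739.9 CPM on dpi 42 (log2 change 1.55 ± 0.12 (SE), q = 2.44e-08). The naive mean was 184 ± 18.9 CPM. Its relative *S100b* (chr10:76253853-76261159, plus strand) was at 1530.4, 1785 and 1447 CPM and at 4142, 3992 and 3743 CPM (log2 change 1.32 ± 0.10 (SE), q = 4.19e-08). The naive mean was 2429.5 ± 198 CPM (dpi 42 against naive 0.70, q = 2.11e-05, and 2.17, q = 1.14e-10 for *S100a1*). The groups lay apart in both, which was a condition of their ranking among the filtered genes. The OL change was larger than in total RNA (difference 0.92, q = 0.00418, and 0.62, q = 0.03). With pools paired this held over 24 but not over 12 libraries (paired q = 0.0295 and 0.185 for *S100a1*, paired q = 0.0212 and 0.263 for *S100b*). Of the 11 tested S100 genes no other was higher. *S100a9*, a neutrophil gene, was lower with at most 3 counts in each dpi 42 library, at least 7.34-fold below dpi 2, and the family median was -0.58. *C4b*, the complement component that OLs also make, rose from 869, 823 and 512 CPM to 2015, 1818 and 2055 CPM (log2 change 1.42 ± 0.23 (SE), q = 1.79e-04), against 222 ± 75 CPM in naive libraries. Its OL change did not differ from that in total RNA by the test (difference 0.36 ± 0.32 (SE), q = 0.709, paired q = 0.393 and 0.705). *Fxyd7*, a small regulator of the sodium pump, was at 63, 69 and 45.1 CPM and at 119.8, 106 and 128 CPM, a log2 change of 1.0 ± 0.13 that missed the limit of 1 (q = 2.06e-05), with a naive mean of 6.16 CPM.

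Markers that distinguish mature OL subtypes moved in both directions, while most general myelin genes were not called. Of 17 subtype markers, 5 were higher (*Jph4*, *S100b*, *Serpinb1a*, *Cdkn1c* and *Grm3*) and *Apod* was lower, against 3.68% and 2.73% of all genes. *Serpinb1a*, an intracellular protease inhibitor, was at 175, 122 and 113 CPM on dpi 2 and at 326, 406 and 478 CPM on dpi 42 (log2 change 1.56 ± 0.25 (SE), q = 1.88e-04). *Grm3*, a metabotropic glutamate receptor, was at 34.4, 21.1 and 28.5 CPM and at 42.9, 61 and 80.01 CPM (log2 change 1.13 ± 0.21 (SE), q = 8.05e-04). Both were still below naive means of 611 and 209 CPM. *Cdkn1c*, a cell cycle inhibitor, rose by a log2 change of 1.2 ± 0.29. Of 26 myelin and mature OL markers 1 was lower, the tight junction gene *Cldn11* (10549, 11786 and 6802 CPM against 3977, 3753 and 4698 CPM, log2 change -1.23 ± 0.17 (SE), q = 3.96e-05), and the list median was -0.04. *Mbp* was at 47724, 56568 and 45045 CPM on dpi 2 and at 53482, 58339 and 70022 CPM on dpi 42 (log2 change 0.28 ± 0.12 (SE), q = 0.122). It did not pass the test. Without the library carrying Y-linked counts and the one with conflicting labels, it passed q under 0.05 but not the limit of 1 (0.485, q = 0.0307). The summed level of the myelin list ran from 123200 to 153360 CPM on dpi 2 and from 131890 to 171960 CPM on dpi 42. Beside *Usp30*, the autophagy receptor gene *Calcoco1* (1.06 ± 0.10) was the second called gene among 17 of mitophagy, and *Pink1* (0.58), *Bnip3l* (0.64), *Optn* (0.90) and *Sqstm1* (0.59) were higher by less than 1 with q under 0.05 (8.91% of all genes were higher at that limit).

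Several energy and damage lists held no called gene. None of 59 respiratory chain genes was called (list median -0.11), nor any of 16 ATP synthase, 18 TCA cycle, 31 proteasome, 20 p53 target, 16 BCL2 family, 18 interferon-stimulated, 14 MHC class I or 27 paranode and axon-glia adhesion genes. At q under 0.05 with no limit on size, 13 proteasome genes were lower and none higher, 4 respiratory chain genes were lower and 2 higher, and 4 paranode genes were higher and 2 lower. At that limit 8.66% of all genes were lower and 8.91% higher, and in lists of this size few calls would be seen at the background share. No call between the days does not mean no difference from naive. Against naive OLs the respiratory chain median was 0.75 on dpi 2 and 0.63 on dpi 42. It was 0.68 and 0.40 for ATP synthase, and 1.83 and 1.51 for MHC class I. The TCA cycle (-0.10 and -0.08) and paranode (-0.77 and -0.65) medians were negative, and those of the remaining lists positive.

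Genes of other cells moved between the days too, and their part in the OL results was not tested. Of 17 genes of lipid-associated phagocytes 8 were higher and 1 lower, against 3.68% and 2.73% of all genes, and 4 were higher with the 6 OL libraries alone. The list stood -3.06 log2 units (median) from total RNA on dpi 2 and -2.97 on dpi 42. *Trem2*, a lipid receptor of microglia and macrophages, was at 3.4, 4.29 and 8.42 CPM and at 17.9, 12.5 and 16.8 CPM (log2 change 1.55 ± 0.25 (SE), q = 1.46e-04). The integrin gene *Itgax* was at 0.718, 0 and 0.421 CPM and at 5.28, 3.25 and 7.51 CPM (log2 change 3.78 ± 0.60 (SE), q = 1.42e-04). *Spp1* (osteopontin) fell (-1.57 ± 0.19). The summed level of the list did not separate the days, with 5113 to 5580 CPM on dpi 2 and 4219 to 5429 CPM on dpi 42. MHC class II genes (4 of 10 higher) and the C1q genes *C1qa* (1.28 ± 0.22) and *C1qc* (1.06 ± 0.24) rose. Genes of infiltrating monocytes and neutrophils were lower for 4 of 15, with summed levels of 26 to 33.7 CPM on dpi 2 and 10.5 to 12.3 CPM on dpi 42. The arginase gene *Arg1* was at 6.58, 14.7 and 11 CPM on dpi 2 and had no count on dpi 42, at least 96.4-fold lower against a floor of 3 counts a library. Of 27 cell cycle genes 6 were lower (among them the proliferation marker *Mki67*, -1.93 ± 0.37, and the topoisomerase gene *Top2a*, -2.69 ± 0.54) and none higher, against 25 lower in total RNA.

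Several higher genes of the lipid efflux, complement and FXYD lists differed widely between the dpi 42 libraries. *Apoe*, the lipid carrier secreted mainly by astrocytes and microglia, was at 856, 1749 and 1904 CPM on dpi 2 and at 13788, 11079 and 5981 CPM on dpi 42 (log2 change 2.77 ± 0.46 (SE), q = 2.33e-04), and rose by 3.14 ± 0.47 (SE), q = 1.65e-04 in total RNA. *C3*, the central complement component, was at 29.7, 7.66 and 75.4 CPM and at 1028, 891 and 184 CPM (log2 change 4.22 ± 0.73 (SE), q = 3.60e-04). The sodium pump regulator *Fxyd1* was at 62.7, 101 and 156 CPM and at 598, 478 and 175 CPM (log2 change 1.97 ± 0.52 (SE), q = 0.0116). *Fxyd1* lost its call without dpi 2 library 1 (1.7, q = 0.0552) or the unnumbered dpi 42 library (1.63, q = 0.0505). In all 3 the unnumbered library and library 2 of dpi 42, which hold most astrocyte marker counts, were the highest. On dpi 2 the order of the libraries was that of the astrocyte sums for *C3* but not for *Apoe* or *Fxyd1*. *Gfap*, the astrocyte filament, was at 1956, 695 and 5736 CPM and at 9632, 7551 and 1407 CPM and did not pass the test (log2 change 1.15 ± 0.68 (SE), q = 0.263), but did without dpi 2 library 3 (2.2, q = 0.0364). Of the 14 astrocyte markers 1 was higher, the glutamate transporter gene *Slc1a3* (1.27 ± 0.40). *Slc1a3* lost its call without any 1 of libraries 1 and 2 of dpi 2 and of the unnumbered library and library 2 of dpi 42 (1.06, q = 0.116, 1.01, q = 0.125, 1.09, q = 0.097 and 1.08, q = 0.0986). The cholesterol exporters *Abcg1* (182, 151 and 123 CPM against 306, 359.6 and 450.4 CPM, log2 change 1.29 ± 0.16 (SE), q = 9.78e-06) and *Abca1* (1.27 ± 0.27) also rose. Schwann cell markers, which the Cre line could include, summed to 1078 to 1709.7 CPM on dpi 2 and to 2119 to 2477 CPM on dpi 42. Of the 12 markers, 10 had a positive and 2 a negative log2 change, with a list median of 0.66. Only *Gldn* (gliomedin) was called, in the direction opposite to that median (-2.31 ± 0.71). It lost that call without library 2 of dpi 2 or any library of dpi 42 (-2.12, q = 0.0732, -2.21, q = 0.0829, -2.37, q = 0.0673 and -2.33, q = 0.061). *S100b* is also expressed by Schwann cells and astrocytes, whose part in its change was not tested.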

How the data were processed

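The authors aligned reads of polyadenylated RNA to mm10 (GRCm38.p6) with STAR, counted them per gene with HTSeq 0.10.0 and deposited whole-number counts for 21965 genes in 24 libraries. Whether counting used strand is not given in the sources used here, so that antisense and overlapping genes may share reads. Symbols and positions were taken from GENCODE M21 (21939 genes matched).

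Genes with at least 10 counts over the 24 libraries (17167) were tested with the quasi-likelihood F test of edgeR 4.0.16 in R 4.3.3, after TMM scaling (factors 0.828 to 0.899 in the 6 OL libraries), over 8 groups of 3 libraries. Standard errors (SE) are the size of the log2 change divided by the square root of F. P-values were adjusted by Benjamini-Hochberg (q), and a gene was called at an absolute log2 change over 1 with q under 0.05. Contrasts gave the OL change, the total RNA change, their difference, OL against total RNA on each day, and OL against naive on each day. The pipeline was tested on simulated counts. The labels call the libraries of a group biological samples, and each came from 2 pooled mice per the study's methods.

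Depth was 25840127 to 32987841 counts in the libraries of both days, and 3 counts, the floor used for bounds, equal 0.105 to 0.122 CPM in OL libraries. Such bounds cover counting error only.

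Named genes are the 12 higher and 12 lower filtered genes with the smallest p and groups that did not overlap, the 5 higher and 5 lower of all called genes, and members of 50 gene lists (up to 4 called members a direction, genes the study names and defining markers), besides *Rpl22* and Y-linked genes. Some genes that this rule picks are not reported here. The samples compared and the lists were chosen with earlier results of these data known. OL and total RNA libraries are paired by the pool number in the deposited column headers, whereas OL pools of the 2 days share only a number. The study paired OL and total RNA in its enrichment test. The difference was tested here without that block, and the paired values, over 24 and over 12 libraries, are given beside it. Alternatives used DESeq2 1.42.0, other scalings and filters, a gene length and GC offset, fewer libraries, replicate blocks and each OL library left out.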

Additional observations from a re-analysis of the deposited data

Results flagged for a closer look

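For 12 of the genes named by rank, the OL change from dpi 2 to dpi 42 differed from the total RNA change of the same pools by more than 1 log2 unit with q under 0.05 (difference of the changes in edgeR). The difference was positive for *Jph4* (1.89), *Mcam* (1.81), *Frzb* (1.71), *Creg2* (1.46), *Nqo1* (1.21) and *Arsb* (1.09). It was negative for *Pde3b* (-3.16), *Spred3* (-2.02), *Vgf* (-1.77), *Snx22* (-1.37), *Add3* (-1.26) and *Hmgcs1* (-1.09). Such a difference is itself an arm of the filtration that these genes passed before ranking, so finding it among them is no independent evidence. These tests did not pair OL and total RNA of a pool. With the pool as a block over all 24 libraries 11 of the 12 passed again, all but *Hmgcs1*, and over the 12 libraries of both days 5 did (*Add3*, *Arsb*, *Jph4*, *Mcam* and *Vgf*). Over all genes there were 79 positive and 86 negative differences with no block, 50 and 54 with the block over 24 libraries, and 10 and 8 over 12.

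Counts on Y-linked genes appeared in the OL library of dpi 2 pool 2 (2414) and in its total RNA library (2604), although the animals are described as female, and no other library held more than 13. Without that OL library, 408 of the 631 higher and 380 of the 469 lower genes were called again and none in the opposite direction.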

How the results depend on the processing

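No gene called in the OL comparison was called in the opposite direction in any alternative, and the 25 genes chosen by rank kept q under 0.05 for the OL change in all of them. Those 25 were picked for the smallest p in libraries that the alternatives reuse, so that this is no independent evidence. The other settings moved counts. With 12 OL libraries in the fit, 262 genes were higher and 238 lower, and with 6 OL libraries 189 and 192, of which 184 and 188 were among the 631 and 469. Called members were then 4 phagocyte genes (8 with all libraries) and 4 ATF4 genes (8). Of the named genes past q, 8 missed 0.05 with 12 OL libraries, 16 with 6 and 25 with the number block described next. With q under 0.05 and no limit on the change, 1529 were higher and 1486 lower, and past 0.5 they were 1222 and 1104. DESeq2 gave 159 higher and 175 lower filtered genes and 177 positive and 195 negative differences from total RNA. With the 12 libraries of both days, 45 higher and 55 lower genes passed the filtration, 27 and 25 differed from total RNA and 73 were higher in total RNA (150 with all).

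The block by tissue pool left 10 positive and 8 negative differences and 45 higher and 40 lower filtered genes over 12 libraries. Over all 24 it gave 50 positive and 54 negative differences, of which 46 and 49 were among those found with no block. Same-numbered OL libraries of the 2 days share only a number (correlation of deviations -0.327 and -0.567 for numbers 2 and 3), and with that number as a block 183 genes were higher and 178 lower, with 2 phagocyte genes higher, 7 ribosomal and 3 ATF4 genes lower and an ATF4 median of -0.50. *Fgfr4* was called with it (-1.59, q = 0.0288). The same block in total RNA gave 421 higher and 539 lower genes. Without both the library carrying Y-linked counts and the one with conflicting labels, 5 ATF4 genes were lower. That alternative, the pool block over 24 libraries and a total RNA library as TMM reference were chosen after seeing the data.

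Leaving out 1 OL library gave 509 to 940 higher and 434 to 496 lower genes, 82 to 169 and 78 to 123 filtered genes, 80 to 191 positive and 59 to 110 negative differences, and 131 to 158 higher and 330 to 366 lower genes in total RNA. Called members ranged from 18 to 22 sterol, 24 to 28 acute OL, 7 to 8 FGF, 6 to 9 ATF4, 4 to 6 ribosomal and 8 phagocyte genes in each case, with medians of -1.63 to -1.31, -1.75 to -1.53, -1.24 to -0.74, -0.40 to -0.30, -0.67 to -0.59 and 0.34 to 0.94. The lowest phagocyte median came without dpi 42 library 3 and the highest without dpi 2 library 3. Of 105 called genes chosen by rank or named in the text, 6 lost q under 0.05 without some library, as given in the report, and 13 kept q under 0.05 but came within the limit of 1 (*Acly*, *Asns*, *Bcat1*, *C1qc*, *Calcoco1*, *Creld2*, *Elovl6*, *Grm3*, *Hsd17b12*, *Nsdhl*, *Pcyox1l*, *Rpsa* and *Scd1*), with changes of at least 0.831 in size. Another scaling, filter, TMM reference or a length and GC offset moved none of these counts by more than 1.5 times. The cause of these shifts was not tested.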

Other observations

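Counts of called members in further lists are to be read against 3.68% of all genes higher and 2.73% lower. Of 24 genes of glycolysis and lactate handling, 1 was higher and 2 lower. *Pfkfb4*, a bifunctional kinase that sets fructose-2,6-bisphosphate levels, was at 46.3, 47.4 and 40.7 CPM on dpi 2 and at 20.7, 18 and 9.78 CPM on dpi 42 (log2 change -1.47 ± 0.20 (SE), q = 3.29e-05), and differed from its total RNA change (-1.22 ± 0.28 (SE), q = 0.0312), but not with pools paired (paired q = 0.061 and 0.373). Of 15 cytosolic heat shock genes 2 were higher. *Hspa1a*, an inducible HSP70 gene whose near-identical neighbour can share its reads, was at 7.67, 7.78 and 3.67 CPM and at 8.07, 36.1 and 37.1 CPM (log2 change 2.09 ± 0.49 (SE), q = 0.00471), so that the unnumbered dpi 42 library stayed near dpi 2. Called members were counted for NRF2 and glutathione genes (1 higher and 2 lower of 22), glucocorticoid targets (0 and 2 of 15), zinc carriers (0 and 1 of 11), TGF-beta, BMP and Id genes (4 and 1 of 24) and potassium channels (0 and 0 of 18).

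They were also counted for markers of OPCs and newly formed OLs (1 higher and 1 lower of 18), neurons (2 and 1 of 17), endothelial cells and pericytes (3 and 0 of 14), fibroblasts (1 and 2 of 16), homeostatic microglia (2 and 1 of 13), lymphocytes (1 and 0 of 13) and the chemokine list (3 and 0 of 17). *Cxcl16*, a membrane-bound chemokine, was at 1.21, 1.26 and 1.03 CPM and at 6.99, 4.29 and 5.05 CPM (log2 change 2.22 ± 0.40 (SE), q = 4.91e-04), and *Col6a1*, a collagen VI chain, at 4.46, 3.04 and 4.63 CPM and at 12.2, 7.39 and 13.5 CPM (log2 change 1.45 ± 0.28 (SE), q = 0.00116). Both stood well below total RNA on dpi 2 (log2 -4.01 and -3.12).

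In 143 of the higher and 100 of the lower genes no library of one day held more than 3 counts, and 4 of them are named here after their values were seen. *Gdnf*, which encodes a neurotrophic factor for motor neurons, was at 13.3, 10.7 and 7.0 CPM on dpi 2 and had no count in the 3 dpi 42 libraries or in naive OLs, at least 92.9-fold lower on dpi 42 (q = 1.24e-04), and it stood 2.18 log2 units above total RNA on dpi 2. Schwann cells of injured nerve also express *Gdnf*, the Cre line is active in them, and their part was not tested. *Peg12*, an imprinted gene, was at 5.71, 5.59 and 6.27 CPM on dpi 2 and had no count on dpi 42, at least 52.6-fold lower (q = 6.06e-04). *Hdc*, the histamine-forming decarboxylase, had no count on dpi 2 and was at 5.8, 5.0 and 1.8 CPM on dpi 42, at least 36-fold higher (q = 1.74e-05). *Ucma*, a cartilage matrix gene, had no count on dpi 2 and was at 28.5, 15.5 and 2.27 CPM on dpi 42, at least 132-fold higher (q = 4.54e-05). Levels of *Ucma* and *Hdc* were lowest in dpi 42 library 3, which also held the fewest astrocyte marker counts of that day (16012, 14059 and 3215 CPM), and the part of astrocyte RNA in either gene was not tested.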
